A study of Mus musculus with 15 samples.

Results

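Mouse corpus callosum damaged by 2 different agents was compared 4 days after injury: 3 libraries from the L-NIO injection site (the L-NIO lesion) against 3 from the LPC injection site (the LPC lesion), 6 of the 15 bulk RNA-seq libraries of the series. The other 9 were 3 from a saline injection site of sham-operated mice and 3 from the contralateral side of each injury model, and they are used here to place the lesion values. All genes that passed a filter on low counts were compared, 16795 of 33321 with all libraries. Strain, age, sex and the number of mice per library were not given in the sources used here, and the labels give no genotype and no day for the saline libraries. The labels also do not say that replicates came from separate mice, so every p-value measures the spread between these libraries. The labels call the LPC injury a repair injury, and the L-NIO injury serves as a model of white matter stroke. Each library holds whatever cells the isolated piece of tissue contained.

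LPC, lysophosphatidylcholine, is a membrane-dissolving lipid that strips myelin from axons at the injection site, and the debris is then cleared by microglia and other phagocytes before oligodendrocyte precursors divide and form new myelin. L-NIO inhibits nitric oxide synthases, above all the endothelial enzyme encoded by Nos3, and so narrows vessels and causes a focal infarct in which axons, glia and vessels are deprived of blood flow together. Microglia, the resident macrophages of the brain, depend on signalling through the receptor CSF1R and on TGF-beta, and they leave their resting state in both kinds of damage to take up and digest myelin in lysosomes.

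With all libraries no gene passed edgeR's quasi-likelihood test at a Benjamini-Hochberg adjusted p under 0.05 between the lesions (0% of 16795 tested). Unadjusted p was under 0.05 for 1409 genes (8.39%), 496 of them higher and 913 lower in the L-NIO lesion, and DESeq2 called 18 genes. The third LPC lesion library stood apart from the first and the second. Its values were known when it was left out, so calls made without it are a description and not an independent test. Without it, 241 of 17119 genes passed (1.41%), 31 higher in the L-NIO lesion (0.181%) and 210 lower (1.23%), and 153 of the 241 differed by at least 2-fold. Unadjusted p was then under 0.05 for 2279 genes (13.3%). The 210 lower genes were led by Csf1, Man2b1, Cx3cr1, Gusb, Pros1, Abca9 and Tgfb1, a set that holds growth factor, receptor and lysosomal enzyme genes of microglia. That count moved with single libraries: it was 0 without L-NIO lesion replicate 1, 2 without L-NIO lesion replicate 3 and 440 without L-NIO lesion replicate 2. With LPC lesion replicate 1 or 2 also left out it was 0 or 264, but the LPC lesion is then a single library that is assumed to vary like the other groups. When only the 2 groups compared entered the fit it was 18, with 9 higher and 9 lower in the L-NIO lesion. Leaving out LPC lesion replicate 3 also took the count for the L-NIO lesion against the saline site from 0 to 398 (2.32%), although those 6 libraries stayed the same, in a model in which all groups share 1 estimate of the spread.

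Total counts of the 6 lesion libraries ran from 16291494 to 20916606. Every oligodendrocyte, astrocyte and microglial marker chosen to check the tissue was detected in all 6, with Mbp, the major myelin protein, at 5158 to 9633 CPM (the count scaled to a common library total) and Aqp4, the astrocyte water channel, at 273 to 429. On the first principal component of all libraries (31.6% of the variance) the LPC lesion lay at 77.2, 50.6 and -11.3 and the L-NIO lesion at 12.7, 34.3 and 21.0, whereas the saline libraries lay between -28.0 and -22.7. The mitochondrially encoded share of counts was 15.9% in L-NIO lesion replicate 1 and 8.78% to 10.4% in the other 5 lesion libraries. The correlation across genes of a library's level relative to the mean with gene length was -0.15, 0.04 and 0.28 in the LPC lesion and -0.12, -0.08 and 0.18 in the L-NIO lesion. Of the contralateral libraries, LPC replicate 2 stood apart on the second component (-62.9) and in its correlation with gene length (-0.60). The part of the mitochondrial share and of gene length in the results was not tested.

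The scores below, each the mean log2 CPM over the tested members of a list relative to the saline mean, place all 6 lesion libraries on 1 scale. For damage-associated microglia, a list of genes that phagocytic microglia switch on, the LPC lesion scored 3.76, 3.03 and 0.23 and the L-NIO lesion 1.75, 2.497 and 2.02. The L-NIO libraries lay below the first and the second LPC library, above the third, and above all 3 saline libraries. Homeostatic microglial genes gave the same order, at 2.39, 1.84 and 0.26 in the LPC lesion and 0.84, 1.18 and 1.16 in the L-NIO lesion. So did complement genes, at 3.23, 2.501 and 0.12 and 1.499, 2.15 and 1.58. In bulk tissue, fewer cells of a type and less RNA per cell cannot be told apart.

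**Figure D1:**
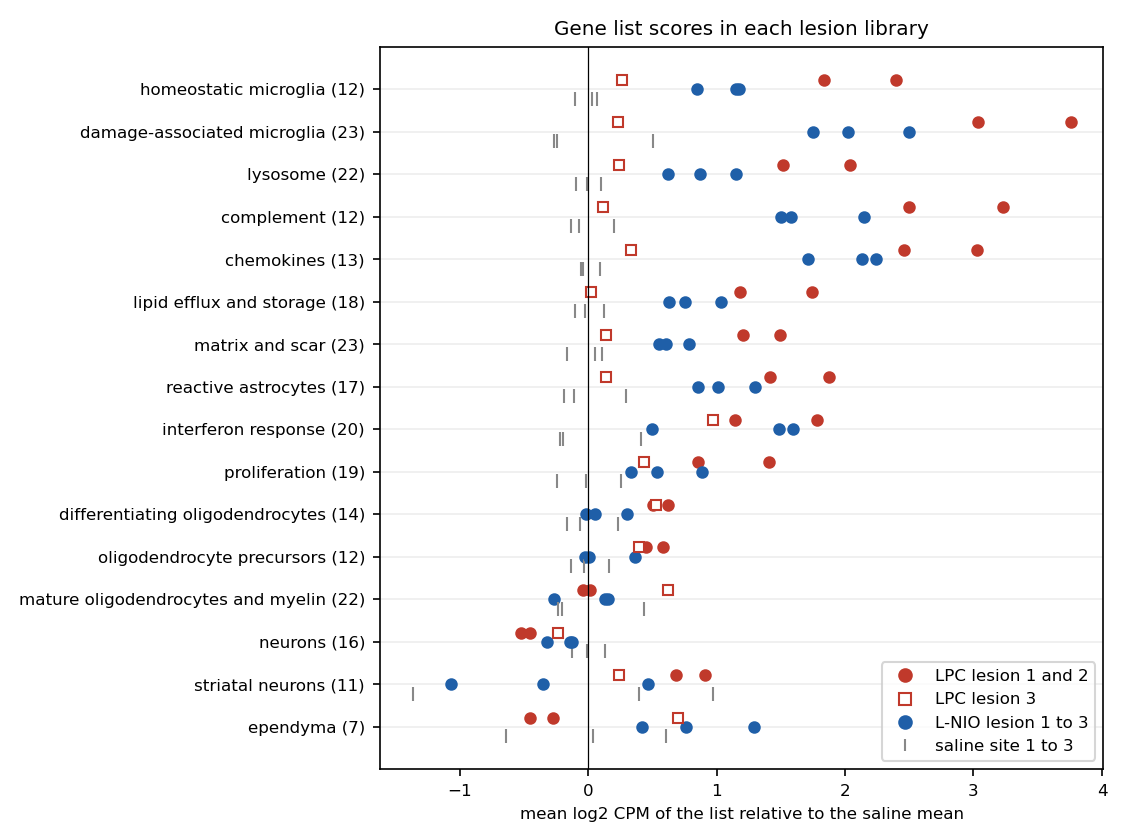
Mean log2 CPM of each gene list relative to the saline mean (x axis) in the 3 L-NIO lesion, 3 LPC lesion and 3 saline libraries, with the number of genes scored in brackets. For the microglial, lysosomal and complement lists the L-NIO points lie between LPC lesion replicates 1 and 2 (filled red circles) and replicate 3 (open squares), while for differentiating oligodendrocytes and oligodendrocyte precursors all 3 LPC libraries lie above all 3 L-NIO libraries.

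Among the 210 genes that were lower without LPC lesion replicate 3, that library lay below all 3 L-NIO libraries for 157 (74.8%, against 25.5% of all tested genes), within the L-NIO range for 41 and above it for 12. It is thus on the far side of the L-NIO libraries from the other 2 LPC libraries for most of these genes. The L-NIO lesion was itself above all 3 saline libraries for 169 of the 210 (80.5%, against 10% of all tested genes). For the 31 higher genes the first and the second LPC library lay below all 3 saline libraries in 26 (83.9%, against 20.9% of all tested genes), and the third lay below all 3 L-NIO libraries in 23 (74.2%, against 25.5%). These counts describe genes chosen for their difference in the same libraries and carry no test.

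**Figure D2:**
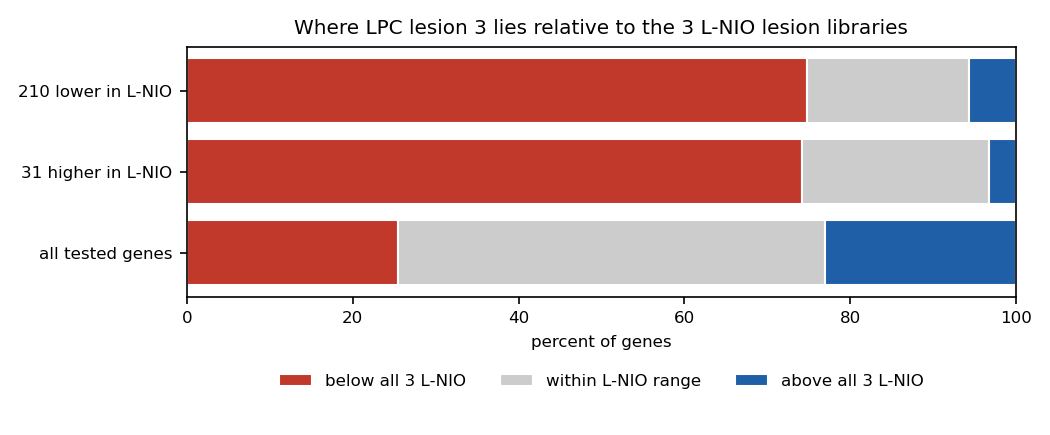
Percent of genes (x axis) for which LPC lesion replicate 3 lay below, within or above the range of the 3 L-NIO lesion libraries, for the 210 genes lower and the 31 genes higher in the L-NIO lesion without that replicate and for all 17119 tested genes. The replicate lay below all 3 L-NIO libraries for 74.8% of the lower, 74.2% of the higher and 25.5% of all tested genes.

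The sequences that accompany these genes are the promoters of members of the lower set that hold the PU box, the binding motif of PU.1, the transcription factor of macrophages and microglia that Spi1 encodes. Spi1 is itself among the 210. The motif searched was GAGGAAGT on both strands, from 250 bases before to 50 after each RefSeq start (GRCm38.p6). It stood in 19 of the 162 lower genes with a promoter in the RefSeq table (11.7%), in 2 of 21 higher genes (9.52%), in 443 of 12643 tested genes (3.5%) and in 1052 of all 32851 promoters (3.2%). The 4 shown are those of the lower genes with the smallest p that hold it, with the motif in capitals, written as ACTTCCTC where it lies on the opposite strand. Gusb encodes beta-glucuronidase, a lysosomal glycosidase (chr5:130003000-130003299, minus strand). Apbb1ip encodes an adaptor that links Rap1 to integrin activation in blood cells (chr2:22774077-22774376, plus strand). Slco2b1 encodes an organic anion transporter (chr7:99711291-99711590, minus strand). Havcr2 encodes the receptor TIM-3 (chr11:46454681-46454980, plus strand).
Gusb: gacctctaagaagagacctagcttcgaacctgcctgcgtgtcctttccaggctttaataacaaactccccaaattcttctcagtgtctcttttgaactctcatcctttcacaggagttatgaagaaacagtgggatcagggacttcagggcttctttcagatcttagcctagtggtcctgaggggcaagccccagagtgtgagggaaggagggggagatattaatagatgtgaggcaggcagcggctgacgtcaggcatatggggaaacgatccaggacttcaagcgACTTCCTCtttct
Apbb1ip: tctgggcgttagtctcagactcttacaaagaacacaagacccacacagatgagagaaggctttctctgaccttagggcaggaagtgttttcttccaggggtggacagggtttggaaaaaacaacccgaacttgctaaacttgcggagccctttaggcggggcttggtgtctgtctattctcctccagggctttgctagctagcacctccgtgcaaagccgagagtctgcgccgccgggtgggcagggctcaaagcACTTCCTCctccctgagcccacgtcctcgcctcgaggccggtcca
Slco2b1: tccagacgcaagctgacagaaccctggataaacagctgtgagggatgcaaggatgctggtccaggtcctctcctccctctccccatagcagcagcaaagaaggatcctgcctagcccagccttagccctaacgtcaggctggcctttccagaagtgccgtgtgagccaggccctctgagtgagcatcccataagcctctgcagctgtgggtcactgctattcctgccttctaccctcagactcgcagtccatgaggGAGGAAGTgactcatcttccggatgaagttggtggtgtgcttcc
Havcr2: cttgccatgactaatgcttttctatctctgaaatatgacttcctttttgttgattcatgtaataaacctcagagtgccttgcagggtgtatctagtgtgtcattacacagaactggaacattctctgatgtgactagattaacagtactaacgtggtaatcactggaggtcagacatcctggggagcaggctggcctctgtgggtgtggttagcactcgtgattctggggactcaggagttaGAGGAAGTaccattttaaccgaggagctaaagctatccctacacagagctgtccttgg
A match is a description of the letters in this window, and binding was not measured. The motif began 37 bases after the start in Gusb, 5 after it in Apbb1ip, 6 after it in Slco2b1 and 8 before it in Havcr2.

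Csf1, the growth factor that microglia need through CSF1R, was at 105, 85.9 and 48.4 CPM in LPC lesion replicates 1 to 3, 39.7, 51.5 and 42.01 in the L-NIO lesion and 28.01 to 34.5 at the saline site. All 3 L-NIO values lay below the first and the second LPC library, and the third LPC value fell inside the L-NIO range. The log2 fold change was -0.84 ± 0.20 (SE) with all libraries, which did not pass (adjusted p = 0.522), and -1.09 ± 0.14 without LPC replicate 3 (adjusted p = 0.0132, with 2.21e-08 to 0.453 over the other settings of that fit). On the contralateral side it was -0.18 ± 0.21. In what follows the 3 LPC values of a gene come first, in the order of replicates 1 to 3, and the 3 L-NIO values follow after the word against. Each edgeR adjusted p under 0.05 between the lesions, with its log2 fold change, is from the fit without LPC replicate 3. This holds also where that replicate's value is printed. The replicate was left out with its values known, so these p-values describe the remaining libraries and are no independent test. None of these calls remained when L-NIO lesion replicate 1 was left out as well.

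Cx3cr1, the fractalkine receptor of resting microglia, was at 425, 298 and 68.8 CPM in the LPC lesion and 108, 175 and 114 in the L-NIO lesion, against 48.6 to 51.7 at the saline site. Both lesions were above saline, and the L-NIO libraries lay between the third LPC library and the other LPC libraries. Without LPC replicate 3 the log2 fold change was -1.43 ± 0.19 (adjusted p = 0.0132), with all libraries -0.99 ± 0.43 (adjusted p = 0.591). Csf1r, the receptor itself, was at 666, 437 and 123 against 143, 291 and 191 CPM and was lower in the L-NIO lesion by the same test (-1.39 ± 0.25, adjusted p = 0.0237). Sall1, a transcription factor of microglial identity, was at 102, 80.3 and 49.5 against 38.99, 50.8 and 49.8 CPM, and all 3 L-NIO values were below the first and the second LPC value while the third, 49.5, lay among them. P2ry12, an ADP receptor that marks resting microglia and was lower too, was at 236, 202 and 65.97 against 126, 94.9 and 148 CPM (-0.82 ± 0.17, adjusted p = 0.0365).

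Of the 12 tested genes of the homeostatic microglia list, 7 were lower and none was higher without LPC replicate 3, with a median log2 fold change of -1.02, beside -0.02 over all tested genes. With all libraries none passed and the median was -0.69, beside -0.04 over all genes, and it was -0.17 when LPC lesion replicate 1 was left out in place of replicate 3. Contralaterally the median of the list was -0.15. Tmem119, another marker of the resident cells, was at 92.7, 45.4 and 17.5 CPM in the LPC lesion and 21.5, 46.4 and 23.2 in the L-NIO lesion and did not pass (adjusted p = 0.0928 without LPC replicate 3). Its second L-NIO value exceeded its second LPC value, so the groups overlapped. Aif1, which encodes IBA1, was at 26.1, 16.7 and 5.74 against 8.08, 15.02 and 11.8 CPM and did not pass either (adjusted p = 0.257 without LPC replicate 3).

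Genes of phagocytic, damage-associated microglia were lower in the L-NIO lesion in 6 of 23 tested cases without LPC replicate 3 (Csf1, Cd68, Lpl and the cathepsin genes Ctsb, Ctsd and Ctsl), and all 23 log2 fold changes were negative, also with all libraries. Of all tested genes 53.4% were negative without LPC replicate 3, 56.4% with all libraries and 52.6% contralaterally, which is the reference for each count of signs given here. The median was -1.303 without that library and -0.79 with it, and it was -0.16 when LPC lesion replicate 1 was left out in place of replicate 3. Cd68, a lysosomal membrane protein of phagocytes, was at 181, 119 and 9.19 CPM in the LPC lesion and 39.99, 70.2 and 50.3 in the L-NIO lesion, against 6.69 to 10.8 at the saline site (-1.48 ± 0.28, adjusted p = 0.0289 without LPC replicate 3). The third LPC value lay at the saline level and the L-NIO values stood above it. Ctsd, the aspartic protease cathepsin D, was at 3877, 2276 and 177 against 513, 1363 and 880.2 CPM (-1.73 ± 0.38, adjusted p = 0.0426).

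Several of the best-known genes of that state did not pass. Trem2, the lipid receptor that drives it, was at 229, 126 and 15.8 CPM in the LPC lesion and 56.7, 72.7 and 61.7 in the L-NIO lesion, which is a log2 fold change of -1.47 ± 0.41 without LPC replicate 3 (adjusted p = 0.114). Cst7, the inhibitor cystatin F, was at 136, 47.6 and 1.27 against 7.91, 30.8 and 25.99 CPM (-2.08 ± 0.67, adjusted p = 0.182). Both genes had their 3 L-NIO values below the first and the second LPC value, with a wide spread within each group. Spp1, which encodes osteopontin, was at 189, 133 and 4.54 against 60.5, 109 and 128 CPM, and Apoe, the lipid carrier, at 3832, 2428 and 923 against 2256, 2889 and 1265 CPM. For Apoe the second L-NIO library exceeded the second LPC library, and neither gene passed (adjusted p = 0.649 and 0.496 without LPC replicate 3). Against saline values of 3.92 to 16.6 CPM for Spp1 and 809.5 to 868 for Apoe, every lesion library except LPC replicate 3 for Spp1 was above the saline range.

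The lysosome list held the most called genes, with 8 of 23 tested members lower without LPC replicate 3 (among them Ctsa, Ctsh, Ctsz, Hexa, Gusb, Grn and Lipa, which stands in another list too) and a median log2 fold change of -0.99 (-0.63 with all libraries, -0.22 without LPC lesion replicate 1 in place of replicate 3 and -0.13 contralaterally). Gusb was at 196, 116 and 16.7 CPM in the LPC lesion, 36.98, 59.2 and 44.3 in the L-NIO lesion and 13.03 to 15.8 at the saline site (-1.73 ± 0.24, adjusted p = 0.0132). The L-NIO values were all above saline and all below the first and the second LPC value, and the third LPC value was just above the saline range. Hexa, a subunit of a lysosomal hexosaminidase, was at 325, 206 and 49.7 against 68.6, 124 and 85.2 CPM. Without LPC replicate 3 its log2 fold change was -1.51 ± 0.24 (adjusted p = 0.0164). Man2b1, lysosomal alpha-mannosidase, a gene outside the lists that was chosen after its values were seen, was at 356, 227 and 55.9 against 79.2, 128 and 89.7 CPM (-1.55 ± 0.20, adjusted p = 0.0132). Naglu, which degrades heparan sulfate and was likewise chosen after its values were seen, was at 54.8, 42.2 and 7.196 against 11.4, 21.5 and 15.9 CPM.

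**Figure D3:**
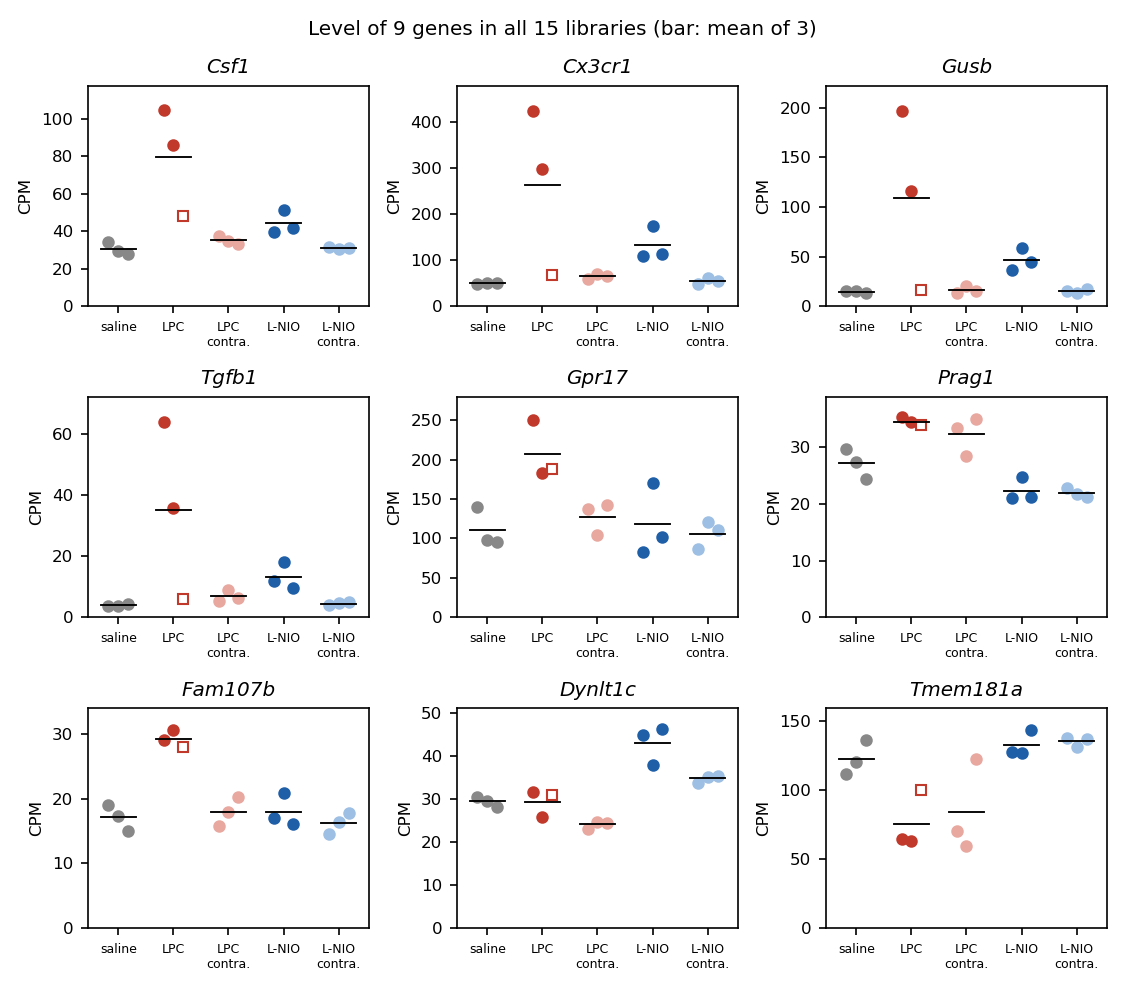
CPM (y axis, from 0) of 9 genes in all 15 libraries, with a bar at the mean of each group of 3 and LPC lesion replicate 3 as an open square. For Csf1, Cx3cr1, Gusb and Tgfb1 that replicate lies apart from the other LPC libraries, whereas for Gpr17, Prag1 and Fam107b all 3 LPC libraries lie above the 3 L-NIO libraries and for Dynlt1c and Tmem181a below them, with replicate 3 of Tmem181a between the other LPC libraries and the L-NIO libraries.

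Genes that handle the lipid of engulfed myelin were lower in 4 of 18 tested cases without LPC replicate 3 (median -0.53, -0.36 with all libraries and -0.17 without LPC replicate 1 in place of replicate 3). These were Lipa, the lysosomal acid lipase, Lpl, lipoprotein lipase, Abca1, the cholesterol exporter, and Mylip, a ligase that degrades the LDL receptor. Abca1 was at 233, 208 and 68.5 CPM in the LPC lesion and 113, 127 and 113 in the L-NIO lesion (-0.90 ± 0.20, adjusted p = 0.0407). Lpl was at 279, 158 and 49.5 against 59.4, 93.9 and 93.4 CPM (-1.400 ± 0.30, adjusted p = 0.0407), and its L-NIO values lay inside the saline range of 54.1 to 107. Of 22 cholesterol synthesis genes none was called in either fit, and the median was -0.06 with all libraries and 0.09 without LPC replicate 3. Hmgcs1, an early enzyme of that pathway, was at 216, 249 and 602 CPM in the LPC lesion and 246, 424 and 238 in the L-NIO lesion, so that its highest value was LPC replicate 3.

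Complement genes were lower in 3 of 12 tested cases without LPC replicate 3, among them Itgam and Itgb2, the 2 chains of complement receptor CR3. The median log2 fold change of the list was -1.08 (-0.64 with all libraries, and -0.04 without LPC lesion replicate 1 in place of replicate 3). Itgam was at 105, 55.9 and 12.3 CPM in the LPC lesion and 34.03, 28.9 and 25.1 in the L-NIO lesion (-1.45 ± 0.24, adjusted p = 0.0164). C1qa, a chain of the initiating C1q complex, was at 542, 344 and 41.1 against 127, 244 and 126 CPM and did not pass (adjusted p = 0.0929 without LPC replicate 3). Among chemokines 2 of 13 tested were lower without LPC replicate 3, the macrophage products Ccl9 and Ccl6. Ccl9 was at 66.7, 33.8 and 2.18 against 10.9, 14.1 and 12.7 CPM (-1.99 ± 0.32, adjusted p = 0.0164), and on the contralateral side at 3.91, 5.54 and 2.01 against 1.27, 1.42 and 1.71. There all 3 L-NIO values were below all 3 LPC values (log2 fold change -1.39 ± 0.85), without passing the test. At the lesions, in contrast, LPC replicate 3 lay below all 3 L-NIO values.

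TGF-beta signalling sets the resting state of microglia and drives scarring, and its genes were grouped here after they were seen among the 210. Tgfb1, the ligand, was at 63.6, 35.6 and 5.99 CPM in the LPC lesion and 11.7, 18.1 and 9.42 in the L-NIO lesion (-1.91 ± 0.28, adjusted p = 0.0164), and the receptor chain Tgfbr1 at 191, 151 and 50.2 against 66.6, 83.8 and 98.8 (-1.03 ± 0.17, adjusted p = 0.0164). For both, the third LPC library lay below all 3 L-NIO libraries. Smad7, the feedback inhibitor of the pathway, was at 49.1, 51.3 and 52.9 CPM in the LPC lesion and 30.9, 38.8 and 35.01 in the L-NIO lesion, with all 3 LPC libraries above all 3 L-NIO libraries and LPC replicate 3 the highest. Its log2 fold change with all libraries was -0.55 ± 0.13 and did not pass (adjusted p = 0.522). Bmp2, a related ligand, was at 5.49, 4.299 and 5.38 against 3.23, 2.89 and 2.33 CPM, again without overlap and without passing (-0.84 ± 0.20, adjusted p = 0.522).

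Transcription factors of the macrophage lineage among the 210, also grouped after their values were seen, included Spi1, Irf5, Irf8, Ikzf1, Maf, Sall1 and Bhlhe41. Spi1 was at 40.4, 23.5 and 4.47 CPM in the LPC lesion and 10.9, 13.3 and 9.62 in the L-NIO lesion, beside 2.31 to 2.98 at the saline site (-1.49 ± 0.31, adjusted p = 0.0353). Irf8, its partner in microglia, was at 111, 64.5 and 11.4 against 20.9, 42.9 and 27.7 CPM, beside 6.08 to 6.93 at the saline site (-1.51 ± 0.29, adjusted p = 0.0288). Both were above saline in all 3 L-NIO libraries. Maf differed by -1.102, Ikzf1 by -1.29, Irf5 by -1.41 and Bhlhe41 by -0.85 on the log2 scale in the same fit.

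Cells from the blood were covered by separate lists. Of 8 tested markers of infiltrating monocytes none passed (median -0.73 without LPC replicate 3, and 0.19 without LPC replicate 1 in its place), and the summed CPM of all 11 in the table was 272, 218 and 123 in the LPC lesion and 142, 183 and 161 in the L-NIO lesion. Of 12 neutrophil genes 4 could be tested without LPC replicate 3 and 1 of them passed, while with all libraries 3 could be tested and none passed. The 1 was Csf3r, the receptor for granulocyte colony-stimulating factor, at 192, 109 and 15.7 against 58.8, 63.95 and 54.6 CPM (-1.33 ± 0.28 without LPC replicate 3, adjusted p = 0.0393). Microglia express Csf3r too, and it made up most of the summed neutrophil level, which was 197, 113 and 17.7 CPM in the LPC lesion and 61.6, 75.2 and 58.8 in the L-NIO lesion, with 3 and 2 of the 12 genes at 0. Lcn2, which neutrophils and reactive astrocytes express, was at 2.897, 1.47 and 0.242 against 1.11, 9.34 and 2.48 CPM and did not pass (log2 fold change 1.49 ± 0.80, adjusted p = 0.618 with all libraries), and its highest value was L-NIO replicate 2. Of 10 border macrophage genes 1 passed without LPC replicate 3, and none of the 9 tested with all libraries did. The 1 was the scavenger receptor Stab1, at 56.1, 47.9 and 11.0 against 24.5, 32.5 and 20.3 CPM (-1.004 ± 0.22 without LPC replicate 3, adjusted p = 0.0389). Mrc1, the mannose receptor of these cells, was at 4.53, 5.67 and 3.08 against 4.96, 2.45 and 3.92 CPM with overlapping groups. Of the T and natural killer cell genes 3 of 14 could be tested and none passed.

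Of 17 tested reactive astrocyte genes 2 were lower without LPC replicate 3, S1pr3, a sphingosine phosphate receptor, and Nes, the filament protein nestin. With all libraries none passed. The list median was -0.58 without LPC replicate 3, -0.41 with all libraries and -0.02 without LPC replicate 1 in its place. Contralaterally it was -0.47, further from 0 than at the lesion with all libraries. Nes was at 25.9, 25.6 and 10.04 CPM in the LPC lesion and 14.9, 14.6 and 13.3 in the L-NIO lesion (-0.84 ± 0.19, adjusted p = 0.0452). Contralaterally it was at 15.3, 14.8 and 18.1 against 11.98, 6.67 and 8.65 CPM, without overlap, and the log2 fold change there was -0.82 ± 0.29, which did not pass. Gfap, the main astrocyte filament, was at 2375, 1618 and 600.1 against 676, 1334 and 674 CPM at the lesions and did not pass (adjusted p = 0.178 without LPC replicate 3). The matrix and scar list had 3 of 24 tested genes lower without LPC replicate 3, Sparc, Plau and Plaur, with a median of -0.37. Sparc, a matrix-binding protein that microglia and endothelium also make, was at 1043, 616 and 230.1 against 300.1, 400.4 and 304 CPM (-1.298 ± 0.20, adjusted p = 0.0164). Plau, the protease urokinase, was at 26.1, 16.02 and 3.27 against 4.96, 9.18 and 6.695 CPM, and Col1a1, fibrillar collagen, at 12.3, 14.2 and 7.62 against 11.4, 9.899 and 7.74, and only Plau passed (adjusted p = 0.0178 and 0.663 without LPC replicate 3).

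Oligodendrocyte lineage genes were scored by stage, and for the differentiating and precursor stages LPC replicate 3 scored with the other LPC libraries. The score of differentiating oligodendrocytes was 0.62, 0.51 and 0.53 in the LPC lesion and 0.06, 0.31 and -0.02 in the L-NIO lesion, with no overlap. No single gene of the list passed in either fit, but all 14 tested log2 fold changes were negative with all libraries, with a median of -0.38 and an unadjusted p under 0.05 for 10, and 13 of 14 without LPC replicate 3 (median -0.41). The median stayed between -0.51 and -0.32 over all settings, and contralaterally it lay between -0.05 and 0.02. Gpr17, a receptor that marks cells about to form myelin, was at 250.4, 183 and 188 CPM in the LPC lesion, 83.3, 170.1 and 101 in the L-NIO lesion and 94.95 to 139.7 at the saline site. All 3 LPC values exceeded all 3 L-NIO values, of which 1 lay below the saline range, 1 inside it and 1 above it, and the log2 fold change of -0.81 ± 0.25 did not pass (adjusted p = 0.522 with all libraries, 0.151 without LPC replicate 3).

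Fyn, a kinase that promotes myelination, was at 170.2, 151 and 157 CPM in the LPC lesion and 128, 144 and 123 in the L-NIO lesion, and Mycl, a transcription factor gene of the same list, at 16.7, 15.2 and 13.6 against 8.86, 12.3 and 9.62. The groups did not overlap for either gene, and neither passed (adjusted p = 0.559 and 0.559 with all libraries). Oligodendrocyte precursor genes scored 0.59, 0.45 and 0.40 in the LPC lesion and -0.02, 0.36 and 0.00 in the L-NIO lesion, again without overlap, though the third LPC score exceeded the second L-NIO score by less than either group's range. Cspg4, which encodes the proteoglycan NG2, was at 55.96, 36.9 and 25.1 against 19.3, 29.03 and 20.8 CPM, so that LPC replicate 3 fell within the L-NIO range. Pdgfra, through which these cells sense platelet-derived growth factor, was at 72.9, 78.95 and 78.7 against 59.3, 71.8 and 63.1 CPM without overlap (log2 fold change -0.25 ± 0.14, adjusted p = 0.632 with all libraries). Striatal neuron genes, whose summed level is given below, also had negative log2 fold changes, and their part in these values was not tested.

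Of the 22 myelin genes of mature oligodendrocytes none passed, and their median was -0.20 with all libraries and 0.07 without LPC replicate 3. Mbp was at 6808, 6424 and 9633 CPM in the LPC lesion, 5158, 7107 and 5421 in the L-NIO lesion and 5237 to 7039 at the saline site, and Mog, a surface myelin protein, at 224, 246 and 343 against 205, 284 and 279. The highest value of each gene was LPC replicate 3. All 19 proliferation genes had negative log2 fold changes in both fits, with medians of -0.39 with all libraries and -0.53 without that library, but none passed and the median was -0.10 in the setting nearest to 0. Mki67, a marker of dividing cells, was at 39.4, 23.5 and 16.6 against 15.3, 21.8 and 28.8 CPM with overlapping groups.

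Hypoxia genes are those that cells switch on when oxygen runs low. Of 15 tested none was called higher in the L-NIO lesion and 1 was lower without LPC replicate 3, Hk2, a glycolytic hexokinase, at 55.2, 34.6 and 6.77 CPM in the LPC lesion and 11.7, 19.96 and 15.1 in the L-NIO lesion (-1.51 ± 0.24, adjusted p = 0.0164). Vegfa, the vascular growth factor that low oxygen induces, was at 83.1, 76.5 and 80.1 against 111, 94.7 and 84.1 CPM. All 3 L-NIO values exceeded all 3 LPC values, by a log2 fold change of 0.27 ± 0.14 that did not pass (adjusted p = 0.611), and the saline values of 81.96 to 92.6 overlapped with the L-NIO values. Nos3, which encodes the enzyme that L-NIO inhibits, was at 6.16, 4.299 and 4.35 against 7.69, 3.003 and 4.66 CPM with overlapping groups (log2 fold change 0.05 ± 0.32). Hmox1, the heme-degrading enzyme induced by bleeding and oxidants, was at 21.7, 13.5 and 4.11 against 7.18, 10.4 and 8.78 CPM and did not pass (adjusted p = 0.0678 without LPC replicate 3). Endothelial genes were not called in either fit (median -0.29 with all libraries), and contralaterally all 16 log2 fold changes were negative with a median of -0.54 and 9 unadjusted p under 0.05, though none passed. Cldn5, the tight junction protein of brain endothelium, was at 25.7, 24.8 and 17.8 against 18.9, 12.8 and 10.6 CPM at the lesions and 20.1, 28.6 and 25.5 against 18.2, 9.46 and 15.8 contralaterally.

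**Figure D4:**
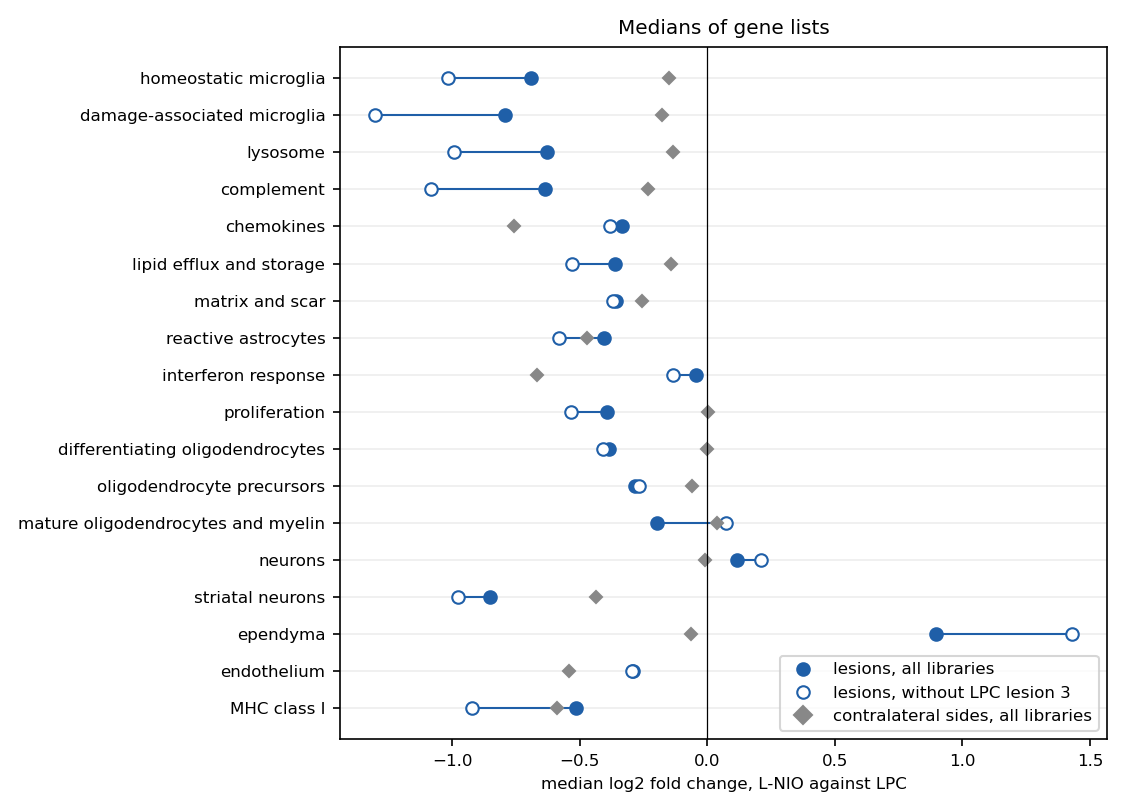
Median log2 fold change of L-NIO against LPC (x axis) for 18 gene lists between the lesions with all libraries (filled circles), between the lesions without LPC lesion replicate 3 (open circles) and between the contralateral sides (diamonds). The microglial and lysosomal medians lie further from 0 at the lesion (-0.79 for damage-associated microglia with all libraries) than contralaterally (-0.18). Several other medians with all libraries, among them the interferon and endothelial ones (-0.67 and -0.54 contralaterally), lie further from 0 contralaterally.

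The 31 higher genes held 1 member of the gene lists, Ccdc153, a gene of ciliated ependymal cells. It was at 1.69, 0.898 and 5.68 CPM in the LPC lesion, 4.901, 3.45 and 8.18 in the L-NIO lesion and 1.96 to 4.26 at the saline site (2.12 ± 0.45, adjusted p = 0.0384 without LPC replicate 3, 0.612 with all libraries). LPC replicate 3 lay inside the L-NIO range. The ependymal list as a whole (8 genes in the table, none at 0 in any group) had a summed level of 22.6, 19.9 and 33.3 CPM in the LPC lesion and 30.2, 26.1 and 43.7 in the L-NIO lesion, and the choroid plexus list (8 genes, none at 0) 81.6, 48.8 and 553 and 225, 134 and 739.8. In the saline libraries the choroid plexus sum ran from 43.9 to 1434 CPM. The median of the choroid plexus list was 2.18 without LPC replicate 3 and 0.66 with it, turned to -0.28 with all libraries but L-NIO replicate 3, and none of its 8 genes passed. The part of tissue next to the callosum in these values was not tested.

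Neuronal genes among the higher ones were Pvalb, the calcium buffer of fast-spiking interneurons, Crhbp, a binding protein for corticotropin-releasing hormone, and the potassium channel genes Kcns3 and Kcnk4. Pvalb was at 19.5, 20.4 and 29.8 CPM in the LPC lesion, 50.5, 47.6 and 40.8 in the L-NIO lesion and 33.5 to 44.5 at the saline site (1.22 ± 0.25, adjusted p = 0.0345 without LPC replicate 3). Crhbp was at 4.95, 8.46 and 10.6 against 16.5, 14.8 and 14.9 CPM, beside 14.7 to 23.7 at the saline site. Miat, a long noncoding RNA of neurons, was at 275, 334 and 447 against 488, 509 and 548 CPM, beside 498 to 587. For these 3 genes all 3 LPC libraries lay below all 3 L-NIO libraries, whose values overlapped with the saline range. None of the 16 genes of the neuronal list passed, with a median of 0.12 with all libraries and 0.21 without LPC replicate 3. Striatal genes differed the other way in sign, as all 11 log2 fold changes were negative (median -0.85 with all libraries and -0.98 without LPC replicate 3), none was called, and the summed level of the list was 1710, 1903 and 1225 CPM in the LPC lesion, 504, 1500 and 789 in the L-NIO lesion and 397, 1412 and 2133 at the saline site. None of the 11 was at 0 in any group. Contralaterally all 11 log2 fold changes were negative as well (median -0.44), and none was called.

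With every library kept, the genes that separated all 3 LPC from all 3 L-NIO libraries numbered 1019 higher (6.07% of those tested) and 1278 lower (7.61%). None passed by edgeR, and those with the smallest p are given as values that did not pass. Separation of 3 from 3 libraries also arises where there is no difference, so it carries no test by itself. Prag1, a pseudokinase that acts on the cytoskeleton, was at 35.2, 34.4 and 33.9 CPM in the LPC lesion and 21.0, 24.7 and 21.2 in the L-NIO lesion (-0.63 ± 0.11, adjusted p = 0.288). The contralateral libraries did not overlap either, at 33.3, 28.5 and 34.9 against 22.9, 21.7 and 21.2 CPM (-0.56 ± 0.11), and Prag1 is 1 of the 210. Fam107b, in contrast, was at 28.97, 30.7 and 27.9 against 17.04, 20.8 and 16.1 CPM at the lesions (-0.70 ± 0.14, adjusted p = 0.329) and at 15.8, 17.9 and 20.3 against 14.6, 16.4 and 17.9 contralaterally, where the groups overlapped. Parvb, an adaptor of integrin adhesions, was at 60.97, 61.9 and 61.2 against 26.5, 45.8 and 32.9 CPM, with the 3 LPC values within 1 CPM of each other and above all saline values (28.4 to 35.6). Spsb1, a substrate receptor of a ubiquitin ligase, was at 32.4, 30.99 and 39.1 against 15.2, 24.6 and 17.9 CPM. DESeq2 called Prag1, Fam107b, Parvb and Spsb1 lower with all libraries, beside Fam222a and Or2y1g, and 12 genes higher.

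Between the contralateral sides no gene passed with all libraries (0% of 16795; 576 at an unadjusted p under 0.05, 8 by DESeq2), while 651 had all 3 L-NIO above all 3 LPC values (3.88%) and 784 below (4.67%). With LPC contralateral replicate 2 left out, 2 of 17122 genes passed between those sides and 1488 had an unadjusted p under 0.05. With all libraries no gene passed the test of whether the difference at the lesion was other than that on the contralateral side. Unadjusted p in that test was under 0.05 for 171 genes, and DESeq2 called 0. Without LPC lesion replicate 3 that test again called none, with 609 genes at an unadjusted p under 0.05. With LPC contralateral replicate 2 left out instead it called none either, with 487 such genes. That test treats the sides as independent, while the deviations of L-NIO lesion and contralateral libraries of the same number correlated at 0.67, 0.42 and 0.28 (in the LPC model at -0.06, 0.19 and 0.38), and the labels do not say that a number marks a mouse. With the sides of each number paired within a model, a fit chosen after seeing the data, edgeR again called none (230 genes at an unadjusted p under 0.05, and 595 without LPC lesion replicate 3). No gene's difference at the lesion was shown to be other than the contralateral one. The contralateral libraries did not overlap, in the same direction, for 46 of the 210 lower genes (21.9%, against 4.64% of all tested genes) and for 13 of the 31 higher genes (41.9%, against 3.9%). The median contralateral log2 fold change was -0.24 for the 210 and 0.27 for the 31, against -1.13 and 1.03 at the lesion without LPC replicate 3. These medians at the lesion are set by the choice of the genes.

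Genes that separated the models on both sides were 62 with all 6 L-NIO libraries above all 6 LPC libraries (0.369% of 16795) and 73 with all 6 below (0.435%). The 62 shared 9 genes with the 31 (14.5% of the 62 and 29% of the 31), and the 73 shared 4 with the 210 (5.48% and 1.9%). Saline libraries overlapped with the L-NIO libraries for 57 of the 62 and 68 of the 73, and with the LPC libraries for 35 of the 62 and 37 of the 73. Overlap with saline is common, as the 3 L-NIO lesion libraries alone overlapped with it for 82.2% of all tested genes. The share of all genes for 6 libraries was not counted, so these counts have no reference. The gene with the smallest p among them was Gm8885, a pseudogene, at 4.51, 3.504 and 2.13 CPM in the L-NIO lesion and 4.66, 1.99 and 2.56 contralaterally, compared with 0.121, 0.0473 and 0.181 in the LPC lesion, 0, 0.175 and 0 contralaterally and 0, 0.135 and 0.101 at the saline site. In counts, summed over the 3 libraries of a group, it had 187 in the L-NIO lesion and 165 on its contralateral side, 6 in the LPC lesion, 3 on its contralateral side and 4 at the saline site. The L-NIO libraries thus stood apart from both the LPC and the saline libraries, and edgeR gave an adjusted p of 0.103 between the lesions and 0.0658 between the contralateral sides. At these counts a fitted fold change depends on the prior count and is not given. DESeq2 called it on both sides, with adjusted p = 2.26e-06 at the lesion and 6.22e-05 contralaterally.

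Among the 62 were Dynlt1b, Dynlt1c, Dynlt1f and Tmem181a, which lie close together on chromosome 17 in RefSeq's GRCm38.p6 gene order, a grouping made after the values were seen. Dynlt1c, a dynein light chain gene, was at 31.5, 25.7 and 30.8 CPM in the LPC lesion and 44.7, 37.9 and 46.1 in the L-NIO lesion. Contralaterally it was at 23.1, 24.7 and 24.4 against 33.7, 35.1 and 35.4 CPM, and at the saline site at 30.5, 29.5 and 28.2. Its log2 fold change was 0.55 ± 0.11 at the lesion and 0.53 ± 0.11 contralaterally (DESeq2 adjusted p = 0.00827 and 0.0452). Dynlt1b was at 20.9, 14.5 and 24.4 against 37.4, 30.4 and 38.5 CPM at the lesions, and Tmem181a, a membrane protein gene beside them, at 64.4, 63.03 and 99.95 against 127, 126 and 143. Contralaterally Tmem181a was at 70.1, 59.6 and 123 against 137, 132 and 137 CPM, and the values overlapped on neither side. Dynlt1b, Dynlt1c and Dynlt1f are near-identical copies, and how reads were divided among them is uncertain. The 62 also held Zfp600, Zfp980, Zfp985 and Rex2, zinc finger genes of chromosome 4, with Zfp600 at 0.241, 0.331 and 0.302 against 1.23, 1.39 and 1.78 CPM at the lesions and 0.417, 0.934 and 0.713 against 1.84, 1.23 and 2.01 contralaterally. How reads were divided among these copies is uncertain as well. Whatever else differed between the mice of the models cannot be told apart from the agent.

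**Figure D5:**
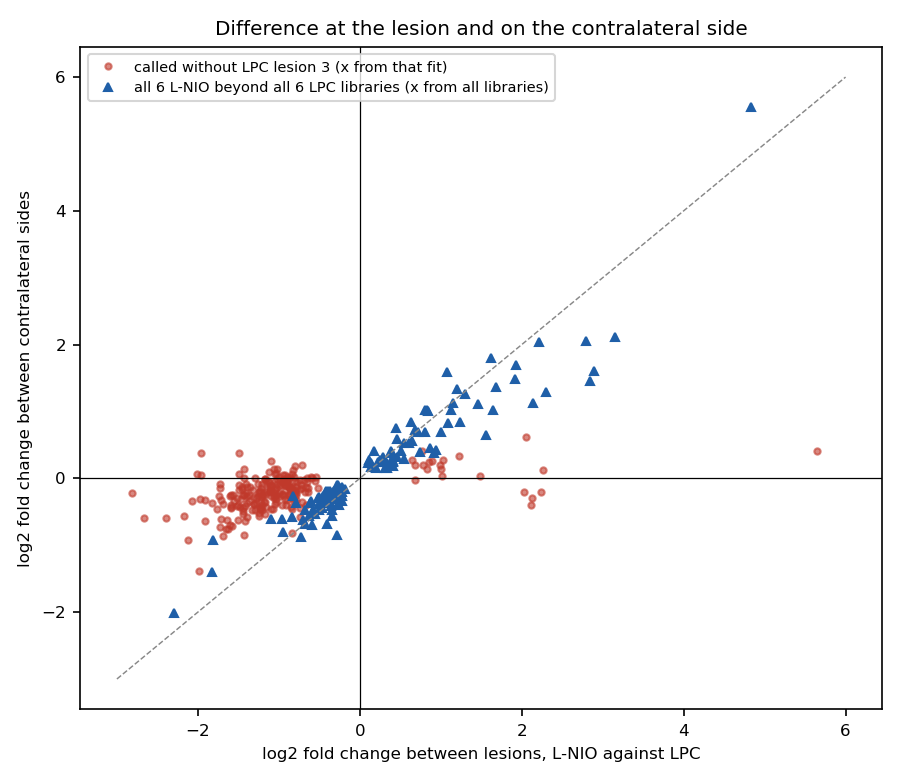
Log2 fold change of L-NIO against LPC between the lesions (x axis) and between the contralateral sides (y axis). Blue triangles are the 135 genes with all 6 L-NIO libraries beyond all 6 LPC libraries, a choice that fixes their quadrant, with Gm8885 at the upper right, and red points are the other genes called without LPC lesion replicate 3, with x from that fit. The contralateral medians are -0.24 for the 210 lower and 0.27 for the 31 higher genes. The dashed line marks equal differences.

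With all libraries, interferon response, chemokine and endothelial genes were among the lists with medians further from 0 contralaterally than at the lesion. Others were MHC class I (-0.59 contralaterally and -0.51 at the lesion), reactive astrocytes (-0.47 and -0.41) and pericytes and smooth muscle (-0.36 and -0.19). At the lesion 1 of 20 tested interferon genes was lower without LPC replicate 3 (Irf8), with a median of -0.14 there and -0.05 with all libraries, whereas contralaterally all 20 interferon log2 fold changes were negative with a median of -0.67 and none passed. Irf7, the master regulator of the response, was at 13.1, 7.79 and 7.498 against 3.51, 17.1 and 9.67 CPM at the lesions and 3.60, 6.42 and 2.01 against 1.67, 2.27 and 0.670 contralaterally. The groups overlapped on both sides. The contralateral interferon median ran from -0.96 to -0.40 over the settings, and the difference between the sides was not called for any gene of the list. Among chemokines all 13 contralateral log2 fold changes were negative (median -0.76), with the score of LPC contralateral replicate 2 at 1.07 and those of the other 2 LPC contralateral libraries at 0.06 and -0.16.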

How the data were processed

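RNA was measured in 15 libraries of 5 groups of 3 (saline, LPC and L-NIO injection sites, LPC and L-NIO contralateral sides). The authors deposited raw read counts per gene symbol and FPKM values. Per the submitters' processing notes, the tools were HISAT2 2.2.1 and R 4.4.2 and the build was GRCm39, with no roles stated. How reads were counted, and whether by strand, is not given in the sources used here. Reads of copied or overlapping genes may therefore be shared. Total counts were 14896445 to 20916606 per library.

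Counts were fitted with edgeR 4.0.16 (R 4.3.3), using quasi-likelihood F tests with robust estimates, TMM factors, filterByExpr (minimum count 10, total 15) and 1 model of all 15 libraries. Benjamini-Hochberg adjustment over all tested genes was used, with calls under 0.05. Each adjusted p in the text is from this test unless DESeq2 is named. Those under 0.05 between the lesions, with their log2 fold changes, are from the same test on 14 libraries, without LPC lesion replicate 3. The SE is the log2 fold change divided by the root of F. CPM values were scaled by the 15-library TMM factors. The same fit was made on 14 libraries, without LPC lesion replicate 3. That replicate was known from earlier results to lie near the uninjected libraries, so that fit is a description beside the main result. Alternatives were DESeq2 1.42.0, limma 3.58.1 on log2(FPKM + 0.1), other filters and factors, only the groups compared, a replicate block and each replicate left out. Those of the 14-library fit, the list of mitochondrial genes, the pairing of sides and the comparison of both sides together were chosen after seeing the data.

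In counts simulated for this comparison, 55.6% of 2-fold changes and 90% of 4-fold changes were recovered with all libraries (16612 genes), and 41.8% and 80% without LPC replicate 3 (16867 genes). False calls numbered 6 and 3. The simulated libraries of a group shared 1 mean per gene, so none stood apart as a whole as LPC lesion replicate 3 did. These shares may therefore not hold for the real libraries. The comparison and the 42 gene lists were chosen with earlier results of these data known. Named genes were up to 10 per direction with the largest change among called, non-overlapping genes (average log2 CPM of at least 1) or else with the smallest p, up to 4 per list by p, up to 4 per direction for the contralateral and side comparisons, and a set of markers. Outside this rule, Irf7, Man2b1, Miat, Mki67, Mrc1, Naglu, Spi1, Tgfbr1, Tmem119 and the other transcription factor genes named with Spi1 were chosen after their values were seen. A few genes are not reported here.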

Additional observations from a re-analysis of the deposited data

How the results depend on the processing

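With all libraries the count of genes called between the lesions, 0 by the reported fit, was 1 with no filter on low counts, 18 by DESeq2, 2 by limma on FPKM and 0 to 241 with 1 replicate left out, the 241 being without LPC lesion replicate 3. Between the contralateral sides, 0 by the reported fit, it was 1 with no filter, 8 by DESeq2, 1 by limma and 0 to 2 with 1 replicate left out, the 2 being without LPC contralateral replicate 2. The test of model by side called 0 in every setting run. Without LPC lesion replicate 3, the count of 241 became 591 by DESeq2 (241 of them shared), 98 by limma (92 shared), 18 with only the groups compared in the fit (12 shared), and 0 to 440 with a further replicate left out. DESeq2's size factors gave 230, no filter 277 and a stricter filter 214. No named gene with a call turned in sign, and 344 values of named genes, each counted once per setting, lost their call in the 14-library fit. The cause was not tested. With the replicate number as a block the count was 19 without LPC replicate 3 (17 shared) and 1 contralaterally, and it stayed at 0 between the lesions with all libraries. With the sides of each number paired within a model, the test of model by side called 0. Equal numbers did not pair the lesion groups, since their deviations correlated at -0.16, 0.13 and 0.07. Low-count genes such as Gm8885, with 3 to 6 counts in an LPC group, are limited by depth.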
